A study of Homo sapiens with 9 samples.

Results

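The genes described here are the LINC genes expressed in IMR90 human fetal lung fibroblasts. They carry a symbol made of the letters LINC and a number, which the gene nomenclature gives to long noncoding RNA genes that lie outside known genes. The members were chosen by their measured read counts: a LINC gene was taken if it had at least 20 raw counts in at least 3 of the 9 libraries. This selected 126 of the 933 LINC genes in the authors' table of 64253 genes, and 364 of the 933 had no count in any library. These are counts of Ensembl identifiers, of which a gene can have several, and repeats among the 933 were not counted. The control cells carried a pLKO.1 lentiviral vector, called empty in the sample labels and GFP in the treatment protocol. The shRRM2 cells carried a hairpin against RRM2, the small subunit of the enzyme that makes deoxyribonucleotides, and the labels class them as senescent. The shRRM2/shp16 cells carried that hairpin as well as one directed at p16, a product of CDKN2A that blocks entry into the cell cycle, and are labelled as senescence-bypass cells. There was no group with the p16 hairpin alone. Each group had 3 libraries, named a, b and c. All cells were at population doubling 30, were grown in 2% oxygen, were infected with the second virus 24 hours after the first, and were kept in 3 ug/mL puromycin for 7 days.

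Long noncoding RNAs are transcribed, spliced and mostly polyadenylated like messenger RNAs but hold no long open reading frame. Some bind proteins or other RNAs and sequester or guide them, some act on the transcription of neighbouring genes, and many have no known role. In senescence, the lasting arrest of division that follows replication stress or DNA damage, p53 and p16 are the main inhibitors of the cell cycle, and p53 also activates a number of noncoding RNA genes.

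Gene counts per library ranged from 15770895 to 24873291. RRM2 was at 485 CPM (counts scaled to the library's gene count, adjusted by TMM factors) in control, 62.1 in shRRM2 and 177 in shRRM2/shp16 cells, and CDKN2A at 6.02, 6.50 and 4.28 CPM. The 8 fibroblast markers checked lay between 41.4 and 13450 CPM as group means. The epithelial, endothelial and blood cell markers reported here lay at 2.34 CPM or less, with KRT5, SFTPC, SCGB1A1 and CD3E at 0 counts in all libraries. PTPRC also held 0 counts, but under an identifier that may not be the main entry of the gene, so it is not read. Uniquely aligned reads that fell outside annotated genes were 17.65% to 18.92% of the total in control, 27.7% to 28.83% in shRRM2 and 23.48% to 24.35% in shRRM2/shp16 libraries. In these bulk libraries, a change in every cell and a change in the share of cells that make an RNA cannot be told apart.

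The name LINC did not always describe the locus. Of the 123 members with a position in GENCODE release 29, on GRCh38, 81 overlapped another annotated gene, 38 of them on the same strand and 66 on the opposite strand, and 25 overlapped a protein-coding gene. The other 42 overlapped none. The release classed 82 members as lincRNA, 12 as antisense, 10 as processed transcripts, 9 as protein-coding and 7 as transcribed pseudogenes. The start of 19 members lay within 1000 bases of the start of a protein-coding gene on the opposite strand. The 126 members carry 125 symbols, since LINC00674 was listed under 2 identifiers. The authors' strand setting is not given in the sources used here. Reads over members that overlap other genes may therefore be assigned to either, or left out as ambiguous. Ambiguous reads were 5.07% to 6.02% of uniquely aligned reads in control, 3.74% to 4.73% in shRRM2 and 4.96% to 5.675% in shRRM2/shp16 libraries.

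Levels of different genes were compared as RPKM, read counts scaled by gene length and by the library's gene count. The median of the 126 mean levels was 0.967 RPKM, and 62 members reached 1 RPKM. LINC00657, now named NORAD, an abundant cytoplasmic RNA that binds the Pumilio proteins and supports genome stability, stood at 99.7 RPKM and held 40.9% of all member counts. It was followed by LINC01420 at 20.5, LINC00493 at 19.3, LINC00152 at 15.5, the ENSG00000278730 entry of LINC00674 at 13.4 and LINC00998 at 10.8 RPKM. The lowest was LINC00939 at 0.163 RPKM. The plot of ranked levels shows LINC00657 apart from this group and a long slope below it.

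**Figure D1:**
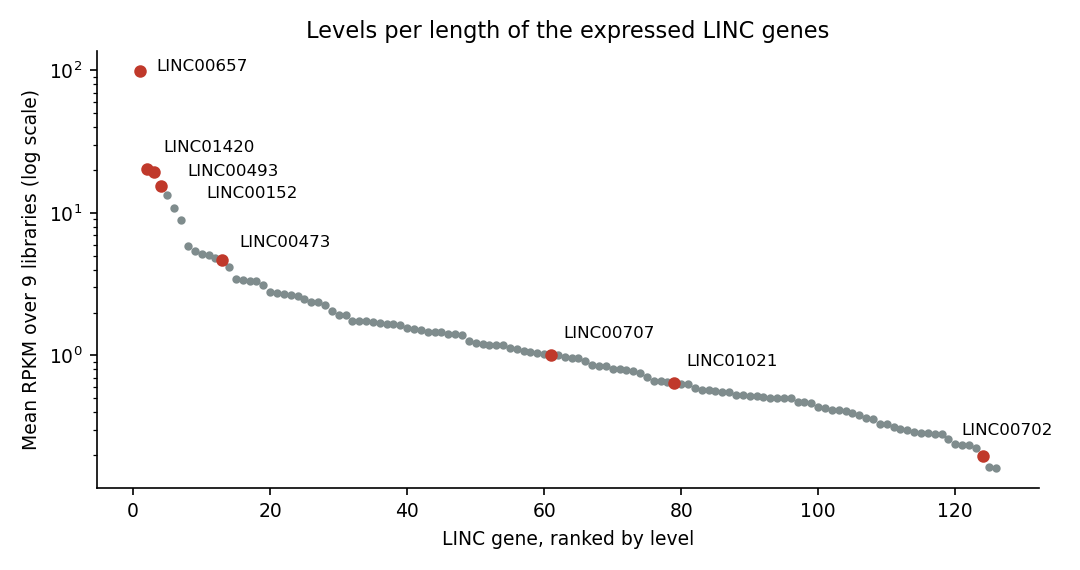
Mean level of each of the 126 LINC genes over the 9 libraries, in RPKM on a log axis, ranked from high to low; 8 genes are named. LINC00657 stands alone at 99.7 RPKM, and the median gene lies at 0.967 RPKM.

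Together the members took 0.105% to 0.113% of gene counts in control libraries, 0.135% to 0.140% in shRRM2 and 0.137% to 0.144% in shRRM2/shp16. Without LINC00657 these shares were 0.0678% to 0.0701%, 0.0786% to 0.0798% and 0.0802% to 0.0817%. By either measure the control libraries did not overlap with the other 6. The share of reads outside annotated genes was also lowest in the control libraries, and its part in this difference was not tested.

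**Figure D2:**
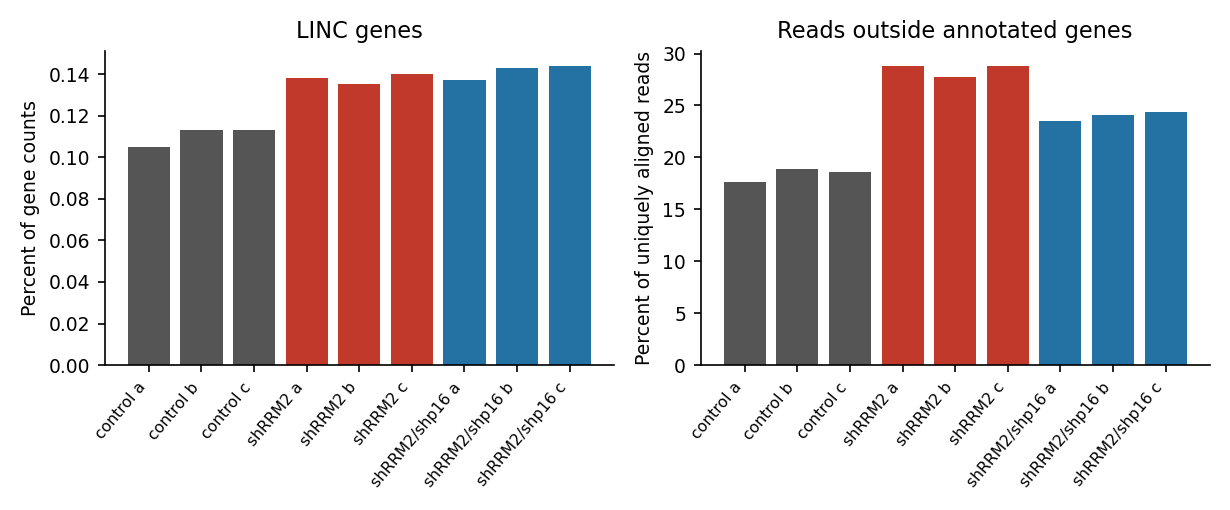
Left, share of each library's gene counts that fell on the 126 LINC genes, in percent; right, reads outside annotated genes in percent of uniquely aligned reads. Bars are single libraries. Both are lowest in the 3 control libraries, at 0.105% to 0.113% and 17.65% to 18.92%.

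The first comparison asked what the RRM2 hairpin did to these RNAs. Of the 124 members tested, 68 passed an adjusted p of 0.05, and 52 of them were higher and 16 lower in shRRM2 than in control cells. That is 54.8% called, where 60.9% of all 16561 tested genes were called. The share called higher was 41.9% against 29.0% of all genes, and the share called lower 12.9% against 31.8%. The median log2 fold change was 0.31 for members and 0.00 for all genes. Other lincRNA genes of GENCODE lay on the same side, with a median of 0.42 over 711 genes, of which 36.1% were called higher and 7.17% lower. Among 13023 protein-coding genes the median was -0.05, and 27.8% were called higher and 38.2% lower. A change of at least 2-fold with an adjusted p under 0.05 was seen in 11 members, 10 higher and 1 lower, or 8.87% where 10.1% of all genes had one. Members with a mean log2 CPM under 2 were called in 41 of 81 cases (50.6%), beside 39.6% of all genes that low. These 2 sets are unlike, since the members also had to meet the count rule and the other genes only the low-count filter of the fit. Limma called fewer members, 32 higher and 9 lower on the authors' log2 values and 35 higher and 10 lower on log2(RPKM + 0.1). Without the authors' column of shRRM2 replicate c, which differs from its count file, the latter gave 44 and 10.

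The count rule itself favours some differences. Without the group where they were highest, 28 members had fewer than 3 libraries with 20 counts, and 26 of these are among the 124 tested. For named members of this kind, the comparisons with that group are given as values with no test. Among the other 98 members, 38 were called higher and 15 lower in shRRM2 against control.

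**Figure D3:**
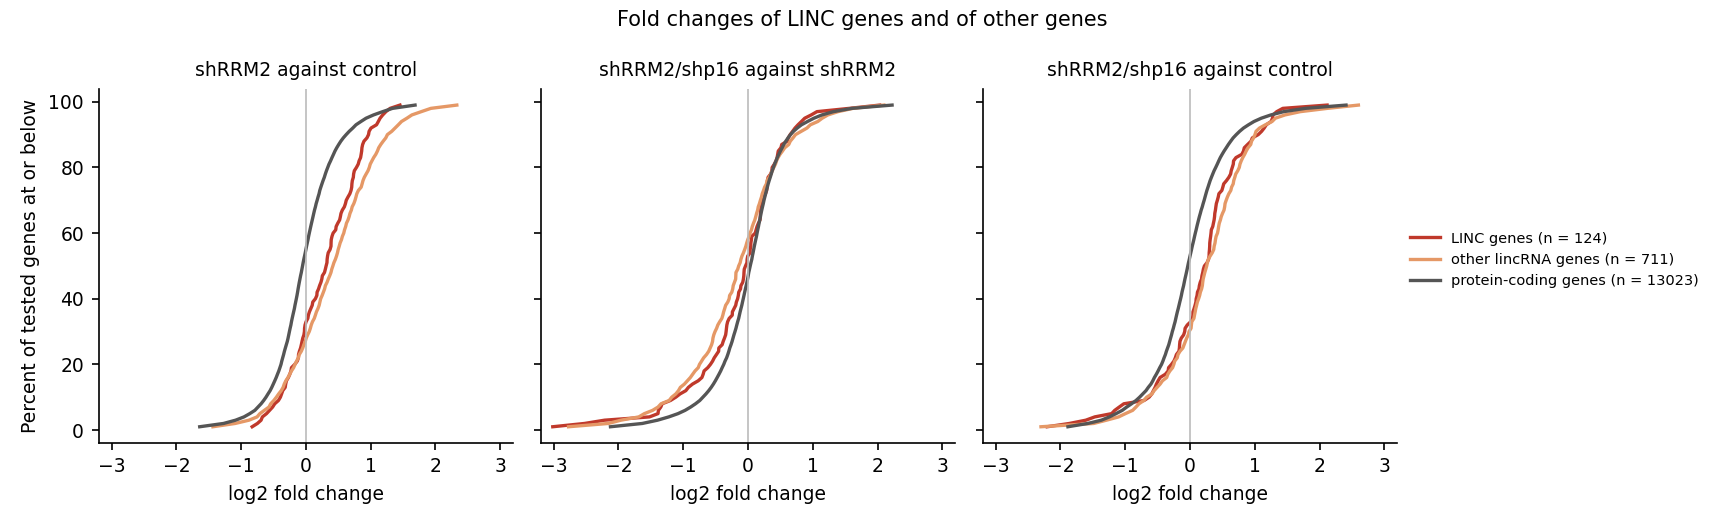
Percent of tested genes at or below each log2 fold change, in 3 comparisons, from the first to the 99th percentile, for 124 LINC genes, 711 other lincRNA genes and 13023 protein-coding genes. The LINC curve runs beside that of the other lincRNA genes and, for most of its length, to the right of the protein-coding curve where shRRM2 or shRRM2/shp16 cells are compared with control (medians 0.31 and 0.22).

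A marked difference in the shRRM2 libraries was that of LINC01021, or PURPL, an RNA known as a p53 target that dampens p53 activity. Its raw counts were 9, 15 and 5 in control, 54, 82 and 58 in shRRM2 and 15, 19 and 11 in shRRM2/shp16 libraries. It passed the count minimum only through the shRRM2 libraries, so its difference is given with no test, as is that of LINC01513 with 7, 6 and 9, then 23, 20 and 23, then 10, 7 and 7 counts. In CPM, LINC01021 stood at 0.377, 0.839 and 0.298 in control, 3.43, 4.73 and 3.33 in shRRM2 and 0.792, 0.946 and 0.591 in shRRM2/shp16. The 3 shRRM2 libraries lay above the other 6. Its promoter is shown because it holds 2 matches to the 10-base unit of the p53 response element, in capitals, with no base between them. The stretch is chr5:27472042-27472341 on the plus strand of GRCh38.p14, from RefSeq, running from 250 bases before to 50 after the start.

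LINC01021: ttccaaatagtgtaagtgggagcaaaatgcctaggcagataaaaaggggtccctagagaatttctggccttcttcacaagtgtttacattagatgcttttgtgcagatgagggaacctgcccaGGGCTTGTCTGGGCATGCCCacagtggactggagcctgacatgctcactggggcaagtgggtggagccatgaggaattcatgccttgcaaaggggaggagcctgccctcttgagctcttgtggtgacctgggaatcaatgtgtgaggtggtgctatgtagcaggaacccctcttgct

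The 2 units lie at bases 124 to 133 and 134 to 143. At least 1 such unit was found on either strand in 6.54% of all 27305 promoters of this length and in 6 of the 95 member promoters (6.32%). A side-by-side pair was found in 5 of the 27305, or 0.0183%, and LINC01021 was the single member among them. A match to a motif is a description of the sequence and shows no binding.

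LINC00311, LINC00632 and LINC00936 rose with the RRM2 hairpin, and LINC00507 was higher by its values. They had the 4 highest log2 fold changes among called members whose average log2 CPM reached 0 and whose groups lay apart. Below that level, LINC00310, LINC00704 and LINC01537 also had values above that of LINC00936. LINC00311 (chr16:85282958-85285963, plus strand) lies within GSE1 on the same strand. It was at 1.17, 0.839 and 1.43 CPM in control and at 3.11, 2.65 and 3.96 CPM in shRRM2 libraries. The log2 fold change was 1.50 ± 0.22 (SE, n = 3 per group, adjusted p = 1.61e-07). With the p16 hairpin added it stood at 1.53, 1.34 and 1.34 CPM, below all shRRM2 libraries (log2 -1.20 ± 0.21, adjusted p = 4.62e-06). LINC00632, a transcript that overlaps CDR1 and is the host of a circular RNA antisense to it, went from 0.964, 1.17 and 0.953 to 2.41, 3.00 and 2.24 CPM (log2 1.31 ± 0.23, adjusted p = 4.70e-06). In shRRM2/shp16 it was at 0.898, 1.05 and 0.968 CPM, which overlapped with control and lay below shRRM2 (log2 -1.39 ± 0.23, adjusted p = 1.99e-06). These gene counts do not tell the circular RNA apart from other transcripts of the gene.

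LINC00936 (chr12:89708959-89712590, plus strand) starts 341 bases from the start of ATP2B1, a plasma membrane calcium pump, on the opposite strand, and is named ATP2B1-AS1 in RefSeq. It was at 1.51, 1.29 and 1.61 CPM in control, 3.30, 3.87 and 2.64 in shRRM2 and 3.75, 4.33 and 3.06 in shRRM2/shp16 libraries. Both hairpin groups lay above control, by log2 1.15 ± 0.21 (adjusted p = 6.04e-06) and 1.34 ± 0.20 (adjusted p = 1.03e-07), and overlapped each other. ATP2B1 itself rose by 0.76 and 1.43 on the log2 scale in the same comparisons. LINC00507 was at 0.503, 0.727 and 0.834 CPM in control and at 1.40, 1.90 and 2.35 in shRRM2 libraries, with no overlap. LINC00507 passed the count rule only through the shRRM2 libraries, so the call behind its ranking is not read as a test. At 0.740, 1.20 and 1.56 CPM in shRRM2/shp16 it overlapped with both. Its call against control (log2 0.79 ± 0.32, adjusted p = 0.0304) was lost without control replicate a (log2 0.58) or shRRM2/shp16 replicate b (log2 0.78) or c (log2 0.54), with adjusted p of 0.0656 to 0.204.

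The lower side was led by LINC00707 (chr10:6779549-6879450, plus strand), the one member that fell at least 2-fold in this comparison. It was at 6.08, 5.92 and 6.08 CPM in control, at 2.67, 2.08 and 1.84 in shRRM2 and at 1.06, 1.59 and 1.07 in shRRM2/shp16 libraries. The groups did not overlap and stepped down in that order. The log2 fold change was -1.47 ± 0.16 in shRRM2 against control (adjusted p = 2.31e-10), -0.80 ± 0.23 with the p16 hairpin added (adjusted p = 0.00212) and -2.27 ± 0.18 from control to shRRM2/shp16 (adjusted p = 5.83e-15). LINC00707 is an RNA studied mainly in tumours. Its nearest protein-coding gene, PRKCQ, was too low to be tested.

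LINC00511, a long RNA of chromosome 17 also studied in tumours, was at 5.36, 6.32 and 6.38 CPM in control, 3.24, 3.29 and 3.39 in shRRM2 and 3.96, 4.33 and 4.51 in shRRM2/shp16. The log2 fold change was -0.85 ± 0.14 with the RRM2 hairpin (adjusted p = 1.45e-06). The difference of 0.37 ± 0.15 between the hairpin groups passed (adjusted p = 0.0318) but was lost without shRRM2 replicate a or b or shRRM2/shp16 replicate b or c (log2 0.33 to 0.37, adjusted p 0.0648 to 0.0896). LINC00161 (chr21:28539318-28540355, plus strand) fell from 2.05, 2.63 and 2.32 to 1.52, 1.44 and 1.21 CPM, by 0.73 on the log2 scale (SE 0.21, adjusted p = 0.00268). LINC00324 was at 2.10, 2.01 and 2.38 CPM in control and 1.65, 1.44 and 0.746 in shRRM2 libraries, with 2.06, 2.59 and 2.15 in shRRM2/shp16. Its log2 fold change of -0.76 ± 0.24 (adjusted p = 0.00598) shrank to -0.47 and was no longer called without shRRM2 replicate c (adjusted p = 0.0941).

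**Figure D4:**
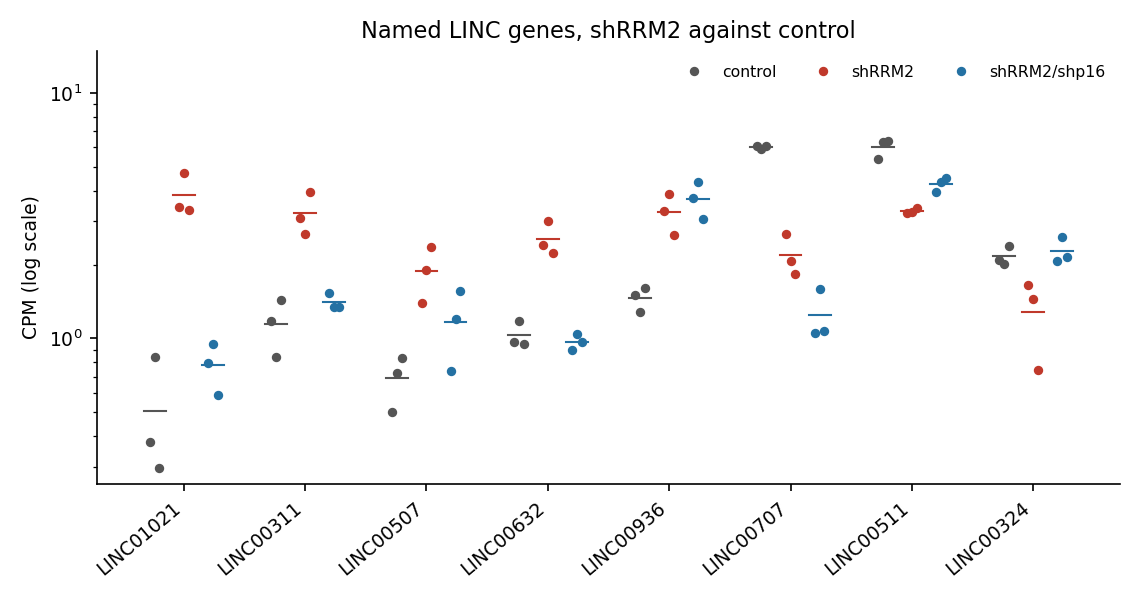
CPM (log axis) in each of the 9 libraries for LINC01021 and, among called members whose average log2 CPM reached 0 and whose groups lay apart, the 4 highest and 3 of the 4 lowest in shRRM2 against control; points are libraries, bars are group means of 3. LINC01021 is highest in the 3 shRRM2 libraries (3.33 to 4.73 CPM), and LINC00707 steps down from about 6 CPM in control to 1.06 to 1.59 in shRRM2/shp16. LINC00507 passed the count rule only through the shRRM2 libraries, so its call is not read as a test.

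LINC00657 rose with the RRM2 hairpin, and its levels with and without the p16 hairpin overlapped. It was at 384, 453 and 444 CPM in control, 590.3, 564 and 604 in shRRM2 and 548, 593 and 601 in shRRM2/shp16 libraries. Every library with a hairpin lay above every control library, while the hairpin groups overlapped. The log2 fold change was 0.46 ± 0.04 in shRRM2 (adjusted p = 3.43e-14), -0.01 ± 0.04 with the p16 hairpin added (adjusted p = 0.771) and 0.45 ± 0.04 from control to shRRM2/shp16. The RNA is known for its repeated Pumilio response elements, searched here as TGTANATA on the transcript strand. The 5339-base transcript holds 15 of them. Of 123 members with a GENCODE transcript, 20 (16.3%) had at least 1 in their longest one. The share was 8.43% of the 25030 genes scanned (members and genes with a lincRNA, antisense or processed transcript). For genes that are no members, only transcripts of those types were scanned. These shares are not scaled by transcript length, so the difference between them is not read as an excess. LINC00657 was 1 of 2 members with 5 or more, and 2 of the 25030 genes had more than it. The 300 bases with the most elements are bases 1159 to 1458 of transcript NORAD-201 of GENCODE 29, from the gene at chr20:36045622-36050960 on the minus strand, with the 3 elements in capitals.

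LINC00657: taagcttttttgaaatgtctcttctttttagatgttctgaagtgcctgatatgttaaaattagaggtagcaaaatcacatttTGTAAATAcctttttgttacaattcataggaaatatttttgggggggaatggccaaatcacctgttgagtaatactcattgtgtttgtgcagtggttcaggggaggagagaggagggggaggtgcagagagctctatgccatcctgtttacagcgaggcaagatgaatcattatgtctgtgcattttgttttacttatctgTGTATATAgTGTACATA

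The second comparison set cells with both hairpins against cells with the RRM2 hairpin alone. The groups also differed in RRM2 itself, which was at 177 CPM with both hairpins and 62.1 CPM with 1 (log2 1.51), so the p16 hairpin and this difference cannot be told apart. Of 124 members, 65 were called, 30 higher and 35 lower in shRRM2/shp16 than in shRRM2 cells. This is 52.4%, where 61.1% of all genes were called, with 24.2% higher against 31.9% and 28.2% lower against 29.1%. The members' median log2 fold change was -0.04, beside 0.01 for all genes. The split turned with the method: limma on the authors' log2 values called 37 higher and 19 lower, and on log2(RPKM + 0.1) 31 higher and 19 lower. Without the mismatched column of shRRM2 replicate c the latter gave 31 and 21. The cause was not tested. Among the 98 members that did not pass the count rule through 1 group, 24 were called higher and 25 lower. Changes of at least 2-fold were found in 18 members, 4 higher and 14 lower, or 14.5% beside 11.8% of all genes. These include members that passed the count rule only through their highest group, among them LINC01293, LINC00973, LINC00622 and LINC00638. The 2 shares are therefore not alike, and the difference between them is not read as an excess. Of the 81 members with a mean log2 CPM under 2, 38 were called (46.9%), beside 38.1% of genes that low, which did not have to meet the count rule.

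LINC00473 had the highest fold change. It is a primate RNA known as a target of the cyclic AMP pathway and its factor CREB. It was at 9.18, 9.39 and 8.34 CPM in control, 7.68, 6.75 and 7.29 in shRRM2 and 44.2, 44.9 and 43.6 in shRRM2/shp16 libraries. The cells with both hairpins lay far above the other 6 libraries, 6.12-fold over shRRM2 (log2 2.61 ± 0.08, adjusted p = 1.69e-30) and 4.92-fold over control (log2 2.30 ± 0.07, adjusted p = 9.09e-30). In the authors' deposited table its log2 fold change between the hairpin groups is 2.71. The small difference between shRRM2 and control (log2 -0.32 ± 0.10, adjusted p = 0.00557) turned to 0.08 (adjusted p = 0.797) with limma on log2(RPKM + 0.1) from the authors' columns, and was -0.26 (adjusted p = 0.0226) without their column of shRRM2 replicate c. Its promoter is shown with the 2 matches to TGACG, the core of the element bound by CREB, in capitals. It is chr6:165987990-165988289 on the minus strand of GRCh38.p14, from RefSeq.

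LINC00473: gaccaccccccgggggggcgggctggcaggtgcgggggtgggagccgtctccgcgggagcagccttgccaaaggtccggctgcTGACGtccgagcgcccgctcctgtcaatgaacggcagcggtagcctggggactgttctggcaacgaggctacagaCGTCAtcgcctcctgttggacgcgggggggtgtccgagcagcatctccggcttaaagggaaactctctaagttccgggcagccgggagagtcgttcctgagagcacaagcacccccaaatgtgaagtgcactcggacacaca

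This core was found on either strand in 25.0% of all promoters and in 33 of the 95 member promoters (34.7%). The full site TGACGTCA, in 1.98% of all promoters, was not in this window. The core was added to the search after the values of LINC00473 had been seen.

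LINC00161 rose as well, and LINC00622 and LINC00638 were higher by their values. Both passed the count rule only through the shRRM2/shp16 libraries, so the calls behind their ranking are not read as tests. LINC00622, an RNA of unknown role, was at 0.754, 0.671 and 1.01 CPM in control, 0.762, 1.33 and 0.746 in shRRM2 and 3.96, 3.69 and 4.62 in shRRM2/shp16 libraries. The first 2 groups overlapped and the third lay above both. LINC00161, of which the fall in shRRM2 was given above, stood at 4.91, 5.08 and 4.78 CPM, above shRRM2 (log2 1.82 ± 0.18, adjusted p = 9.83e-12) and above control (log2 1.09 ± 0.16, adjusted p = 8.75e-08). LINC00638, named VESTAR in RefSeq, was at 1.09, 1.06 and 0.834 CPM in control, 0.952, 0.404 and 1.44 in shRRM2 and 2.27, 2.54 and 1.88 in shRRM2/shp16 libraries. The cells with both hairpins lay above the other 2 groups, which overlapped.

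LINC00152, or CYTOR, a mostly cytoplasmic RNA linked to proliferation and cytoskeletal genes, had the lowest log2 fold change among the 6 members with the highest RPKM. It was at 61.5, 61.1 and 60.4 CPM in control, 71.0, 74.2 and 72.5 in shRRM2 and 24.6, 28.1 and 26.0 in shRRM2/shp16 libraries. The 3 groups did not overlap. It was 2.76-fold lower in shRRM2/shp16 than in shRRM2 cells (log2 -1.47 ± 0.05, adjusted p = 1.66e-27) and 2.32-fold lower than in control (log2 -1.22 ± 0.05, adjusted p = 1.74e-24), after a rise of 0.25 ± 0.04 with the RRM2 hairpin (adjusted p = 5.18e-06). The gene has a paralogous copy, MIR4435-2HG, which shares 19.1% of the 50-base stretches of its longest transcript. Its promoter, at chr2:87455177-87455476 on the plus strand of GRCh38.p14 from RefSeq, is shown for its 2 AP-1 matches (TGANTCA on either strand), in capitals.

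LINC00152: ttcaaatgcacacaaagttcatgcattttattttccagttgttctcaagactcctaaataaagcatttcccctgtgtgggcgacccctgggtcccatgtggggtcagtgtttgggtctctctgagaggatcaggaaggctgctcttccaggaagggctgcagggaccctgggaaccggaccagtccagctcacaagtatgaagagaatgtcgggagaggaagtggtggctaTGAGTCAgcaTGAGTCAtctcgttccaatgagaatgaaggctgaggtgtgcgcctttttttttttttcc

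The AP-1 matches lie 19 and 9 bases before the start. A match was found in 13 of the 95 member promoters (13.7%) and in 7.76% of all promoters, and 2 or more in 4 and 0.505%. Of the 13 members, 5 were called lower and 2 higher with the p16 hairpin added, and their median was log2 -0.24, beside 23 lower and 25 higher of 94 tested members with a promoter entry and a median of 0.03. This was 1 of 9 motifs searched. The 14 members with the cell cycle motif CHR (TTTGAA) had 5 lower and 2 higher calls and a median of -0.35, while that motif was in 14.7% of member promoters and 15.4% of all. The 13 members with an AP-1 match include LINC00973 and LINC00702, called lower, and LINC00963, called higher (log2 0.25). LINC00973 and LINC00704, both among the 5 called lower, passed the count rule only through the shRRM2 libraries. The split of calls thus rests in part on members chosen by that rule, and a link to the motif was not tested.

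LINC01293, LINC00973 and LINC00273 had, with LINC00152, the 4 lowest log2 fold changes among called members whose average log2 CPM reached 0 and whose groups lay apart. All 3 passed the count rule only through the shRRM2 libraries, so the calls behind their ranking are not read as tests. The fold changes of LINC01291, LINC00704 and LINC00452, below that level, were lower than that of LINC00973. LINC01293 was at 1.63, 1.06 and 1.25 CPM in control, 2.48, 3.06 and 3.21 in shRRM2 and 0.317, 0.348 and 0.323 in shRRM2/shp16 libraries. The groups did not overlap, and the cells with both hairpins lay below control (log2 -2.005 ± 0.34, adjusted p = 1.46e-06). It lies beside LINC01291, on the same strand of chromosome 2, and RefSeq lists the 2 names under 1 gene. LINC01291, named here after its values were seen, was at 1.13, 1.45 and 0.774 CPM in control, 2.35, 2.31 and 2.47 in shRRM2 and 0.106, 0.149 and 0.161 in shRRM2/shp16 libraries. The last group held 8 counts in all, 17.1 times fewer than shRRM2 at equal depth. LINC01291 also passed the count rule only through the shRRM2 libraries, so this ratio is given with no test. LINC00704, or MANCR, also named after its values were seen, had 25, 15 and 14 counts in control, 35, 34 and 37 in shRRM2 and 5, 10 and 4 in shRRM2/shp16 libraries.

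LINC00973 was at 1.47, 1.17 and 0.953 CPM in control, 2.22, 2.48 and 2.47 in shRRM2 and 0.634, 0.348 and 0.645 in shRRM2/shp16 libraries, with no overlap between groups. Cells with both hairpins lay below control (log2 -1.18 ± 0.31, adjusted p = 0.00110). Its nearest protein-coding gene, DCBLD2, went from 827 to 1148 and 521 CPM. LINC00273 was at 0.629, 0.671 and 1.43 CPM in control, 1.52, 1.33 and 1.95 in shRRM2 and 0.528, 0.498 and 0.806 in shRRM2/shp16 libraries. Its control libraries overlapped with both other groups. The authors' deposited table gives it a log2 fold change of -0.09 between the hairpin groups, with q = 0.414.

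**Figure D5:**
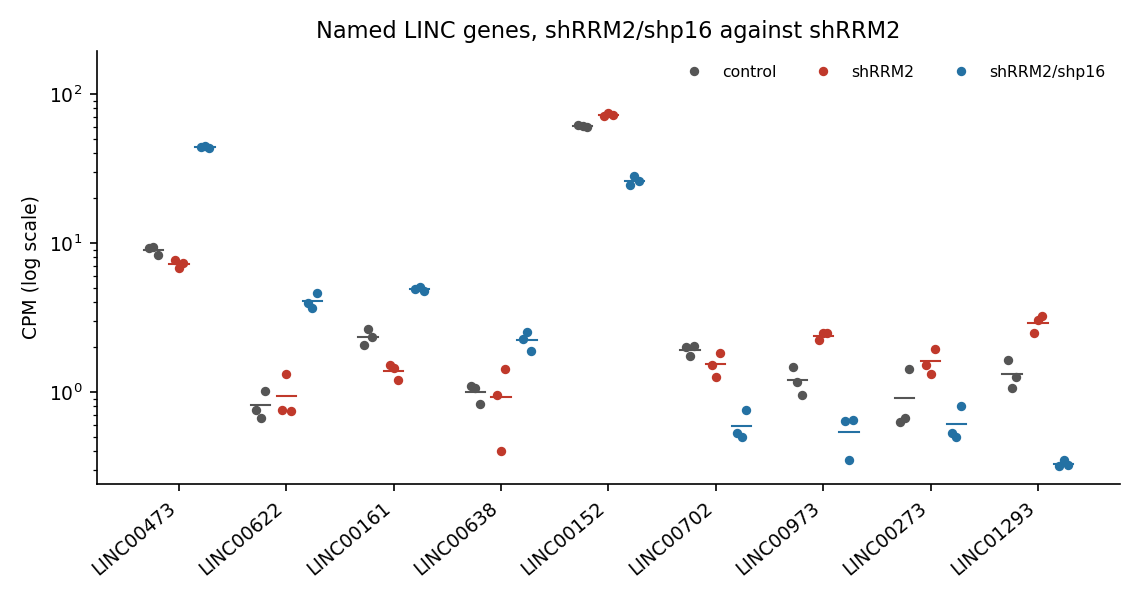
CPM (log axis) in each of the 9 libraries for the 4 highest and the 4 lowest in shRRM2/shp16 against shRRM2 among called members whose average log2 CPM reached 0 and whose groups lay apart, and for LINC00702; points are libraries, bars are group means of 3. LINC00473 stands at 43.6 to 44.9 CPM in the shRRM2/shp16 libraries and under 10 in the others, while LINC00152 drops to 24.6 to 28.1 CPM. LINC00622, LINC00638, LINC01293, LINC00973 and LINC00273 passed the count rule only through their highest group, so their calls are not read as tests.

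The third comparison set the cells with both hairpins against control, with the control libraries shared with the first and the shRRM2/shp16 libraries with the second. Of 124 members, 67 were called, 46 higher and 21 lower. This is 54.0% beside 62.4% of all genes, with 37.1% higher against 30.0% and 16.9% lower against 32.4%, and a median log2 fold change of 0.22 beside 0.01. The 711 other lincRNA genes had a median of 0.26, and the 800 antisense genes one of 0.29. At least 2-fold changes were found in 24 members, 13 higher and 11 lower, which is 19.4% beside 12.6% of all genes. Here too the members include some that passed the count rule only through their highest group, such as LINC00622, LINC01270, LINC00959 and LINC00954. The difference between the shares is not read as an excess. Of the 81 low members 36 were called (44.4%), beside 36.7% of low genes, which again did not have to meet the count rule. Among the 98 members that did not pass the count rule through 1 group, 37 were called higher and 15 lower. LINC00473 and, by its values, LINC00622 had the highest fold changes. LINC00174 rose from 1.22, 1.45 and 1.73 to 4.81, 3.48 and 4.08 CPM (log2 1.51 ± 0.19, adjusted p = 3.53e-09), with shRRM2 between at 2.60, 2.71 and 3.27 CPM. Of its 2 steps, the first was 0.99 ± 0.21 (adjusted p = 7.82e-05). The second, 0.52 ± 0.17 (adjusted p = 0.00806), was not called without shRRM2/shp16 replicate a (log2 0.40, adjusted p = 0.0717), and the authors' deposited table gives -0.14 for it.

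On the lower side, LINC00707, LINC01293 and LINC00152 were joined by LINC00702, an RNA at chr10:4201141-4243912 on the minus strand, 415860 bases from KLF6. It was at 2.01, 1.73 and 2.03 CPM in control, 1.52, 1.27 and 1.84 in shRRM2 and 0.528, 0.498 and 0.752 in shRRM2/shp16 libraries. The first 2 groups overlapped and the third lay below both, with a log2 fold change of -1.70 ± 0.27 from control (adjusted p = 7.63e-07) and -1.38 ± 0.29 from shRRM2 (adjusted p = 8.63e-05). KLF6, its nearest protein-coding gene and a zinc finger transcription factor, went from 374 to 255 and 134 CPM.

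Some of the more abundant members encode small proteins. GENCODE classes 9 members as protein-coding, and RefSeq lists a protein for the same 9. It gives 2 more, LINC01279 and LINC01513, as older names of CCDC80 and ROPN1L. The 9 had a median level of 4.84 RPKM, beside 0.914 for the 107 members classed as noncoding. With the RRM2 hairpin 4 were called higher and 1 lower (median log2 0.14), with the p16 hairpin added 3 and 1 (median 0.04), and between control and both hairpins 4 and 1 (median 0.29). Of all genes, 29.0% and 31.8%, 31.9% and 29.1%, and 30.0% and 32.4% were called higher and lower in these comparisons. The coding sequences of the 2 best known are shown to let their size be seen, with start and stop codons in capitals. LINC01420 encodes NBDY, a P-body protein that binds the decapping complex, and LINC00998 encodes SMIM30, a small membrane protein. Both are from GENCODE 29, with 68 and 59 codons before the stop.

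LINC01420: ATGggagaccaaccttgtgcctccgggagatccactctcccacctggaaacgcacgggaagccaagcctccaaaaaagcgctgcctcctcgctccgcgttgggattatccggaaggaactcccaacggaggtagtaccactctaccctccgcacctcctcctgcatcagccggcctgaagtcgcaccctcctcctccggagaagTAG
LINC00998: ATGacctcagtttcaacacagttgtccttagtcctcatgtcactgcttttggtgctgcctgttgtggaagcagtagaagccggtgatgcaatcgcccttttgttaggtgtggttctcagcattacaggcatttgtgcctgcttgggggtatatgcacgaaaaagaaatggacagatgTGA

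LINC01420 was at 24.6, 29.1 and 34.6 CPM in control, 28.8, 28.3 and 29.9 in shRRM2 and 33.4, 34.5 and 38.5 in shRRM2/shp16 libraries. The shRRM2 libraries lay within the control range, and the shRRM2/shp16 libraries overlapped with control but lay above all shRRM2 libraries (log2 0.29 ± 0.07 over shRRM2, adjusted p = 0.000806). LINC00493, which encodes the mitochondrial protein SMIM26, was at 18.5 to 19.5 CPM in the 3 control libraries, at 22.2, 19.9 and 21.9 in shRRM2 and 22.4, 23.1 and 24.2 in shRRM2/shp16. Only the change from control to shRRM2/shp16 (0.29 ± 0.07, adjusted p = 0.000196) was called in all fits that left out 1 library, while the step to shRRM2 (0.17 ± 0.07, adjusted p = 0.0340) was lost without control replicate a, b or c or shRRM2 replicate a or c (adjusted p 0.0516 to 0.110). LINC00998 was at 19.6, 19.7 and 22.2, then 20.3, 17.9 and 19.3, then 23.0, 20.7 and 21.5 CPM. Its difference between the hairpin groups (0.18 ± 0.07, adjusted p = 0.0292) was lost without shRRM2 replicate b or shRRM2/shp16 replicate a (adjusted p 0.135 to 0.152).

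LINC00116, which encodes the mitochondrial micropeptide mitoregulin (MTLN), was at 12.1, 9.62 and 11.4 CPM in control, 10.6, 9.35 and 8.03 in shRRM2 and 9.46, 9.31 and 9.78 in shRRM2/shp16 libraries. Groups overlapped, and neither of its calls held in all fits. That of shRRM2 (log2 -0.26 ± 0.10, adjusted p = 0.0289) was lost without control replicate a or c or shRRM2 replicate b or c (log2 -0.26 to -0.15, adjusted p 0.0584 to 0.239). That of shRRM2/shp16 against control (log2 -0.22 ± 0.10, adjusted p = 0.0489) was lost without control replicate a or c, shRRM2 replicate b or any shRRM2/shp16 replicate (log2 -0.24 to -0.13, adjusted p 0.0557 to 0.323). LINC01279 was at 33.8, 34.3 and 31.8 CPM in control, 26.9, 31.7 and 33.5 in shRRM2 and 15.9, 16.4 and 15.5 in shRRM2/shp16 libraries. Control and shRRM2 overlapped, and the third group was lower than control by 1.06 on the log2 scale (log2 -1.06 ± 0.07, adjusted p = 1.53e-17). CCDC80, a secreted matrix protein gene that RefSeq merges with it, was at 299, 217 and 143 CPM in the same groups.

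LINC00094, whose RefSeq name is BRD3OS, was at 29.5, 29.6 and 30.7 CPM in control, 30.1, 34.9 and 33.7 in shRRM2 and 34.6, 34.2 and 33.1 in shRRM2/shp16 libraries. It was higher in shRRM2/shp16 than in control, with no overlap (log2 0.19 ± 0.06, adjusted p = 0.00486). The difference of 0.14 ± 0.06 with the RRM2 hairpin (adjusted p = 0.0367) was lost without any 1 control replicate or shRRM2 replicate b or c (log2 0.10 to 0.15, adjusted p 0.0540 to 0.189). LINC00087, or SMIM10L2B, was at 1.43, 1.29 and 1.01 CPM in control, 2.79, 1.61 and 1.78 in shRRM2 and 1.69, 1.94 and 1.77 in shRRM2/shp16. Its rise with the RRM2 hairpin (log2 0.69 ± 0.24, adjusted p = 0.0122) was lost without control replicate c (log2 0.57, adjusted p = 0.0611) or shRRM2 replicate a (log2 0.43, adjusted p = 0.164). LINC01125, or C2orf92, was at 2.05, 1.73 and 1.49 CPM in control, 3.55, 3.23 and 2.93 in shRRM2 and 2.53, 2.49 and 2.04 in shRRM2/shp16 libraries (log2 0.85 ± 0.19 for shRRM2 against control, adjusted p = 0.000197). LINC00959, or C10orf143, had 20, 7 and 7 counts in control, 16, 13 and 13 in shRRM2 and 36, 25 and 20 in shRRM2/shp16, and LINC00672 was called in none of the 3 comparisons. These last 3 are named after their values were seen.

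The ENSG00000278730 entry of LINC00674, an RNA of unknown role, was at 32.4, 33.3 and 33.9 CPM in control, 41.2, 40.3 and 42.8 in shRRM2 and 42.2, 42.5 and 44.2 in shRRM2/shp16 libraries. Both hairpin groups lay above control and overlapped each other (log2 0.32 ± 0.05 for shRRM2, adjusted p = 1.06e-06). The ENSG00000237854 entry was at 4.65, 4.42 and 5.06, then 8.95, 7.90 and 8.15, then 6.76, 7.02 and 6.24 CPM, with no overlap between groups.

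The span of 5 members holds annotated microRNA genes on the same strand. LINC00472 holds MIR30A and MIR30C2, whose main products share a seed, bases 2 to 8, shown in capitals. The sequences are from RefSeq on GRCh38.p14, at chr6:71403595-71403616 and chr6:71377003-71377025 on the minus strand.

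hsa-miR-30a-5p: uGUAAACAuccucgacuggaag
hsa-miR-30c-5p: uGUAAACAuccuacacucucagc

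LINC00472 was at 11.6, 12.0 and 12.8 CPM in control, 22.5, 20.9 and 21.6 in shRRM2 and 18.5, 17.3 and 19.2 in shRRM2/shp16 libraries, with no overlap between groups. The log2 fold change was 0.84 ± 0.08 with the RRM2 hairpin (adjusted p = 7.43e-13), -0.24 ± 0.07 with the p16 hairpin added (adjusted p = 0.00349) and 0.60 ± 0.08 from control to shRRM2/shp16. The microRNAs themselves were not measured by these libraries. Of the other 4 hosts, LINC01138, which holds MIR5087, rose from 3.05, 3.69 and 3.44 in shRRM2 to 6.18, 6.12 and 6.56 CPM in shRRM2/shp16 (log2 0.88 ± 0.14, adjusted p = 6.09e-07), with control at 3.81, 2.96 and 3.28. LINC00669, which holds MIR924 and MIR5583-2 and passed the count rule only through the control libraries, was at 1.76, 1.84 and 2.03 CPM in control and 0.898, 0.847 and 1.02 CPM in shRRM2/shp16, with no overlap. LINC00969, which holds MIR570, stood at 21.3 to 23.4 CPM in shRRM2 libraries and fell to 16.1 to 19.02 CPM with the p16 hairpin added (log2 -0.31 ± 0.07, adjusted p = 0.000298), and shares 33.1% of its 50-base stretches with genes elsewhere, mostly SDHAP1. Its difference between shRRM2 and control (log2 0.17 ± 0.07, adjusted p = 0.0414) was lost without any 1 control replicate or shRRM2 replicate b or c (log2 0.14 to 0.18, adjusted p 0.0558 to 0.140). The last host is LINC00152, which holds MIR4435-1.

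Neighbouring protein-coding genes were set beside the members in 97 pairs where both were tested. The median distance of all positioned members to the nearest such gene was 9416 bases, and 20 lay over 100 kb away. Across the pairs, Spearman's rho of the fold changes was 0.10 with the RRM2 hairpin, 0.42 with the p16 hairpin added and 0.19 between control and both hairpins, as a description over pairs that share libraries. Both genes of a pair were called in 36, 37 and 39 pairs, with the same direction in 18, 26 and 22. Of all tested genes 60.9%, 61.1% and 62.4% were called in these comparisons, so pairs with both genes called are common without any link. Some neighbours, such as POLE4, SAMD11 and KPNA2, stand in more than 1 pair. For the 17 head-to-head pairs, some of which also count as overlapping, rho was -0.04, 0.11 and 0.27. For the 17 overlapping pairs it was 0.39, 0.51 and 0.19, for the 34 that did not overlap within 10 kb -0.16, 0.23 and -0.0029, and for the 12 over 100 kb apart 0.08, 0.64 and 0.36. LINC00311 and GSE1, which it overlaps, moved apart in the first comparison, 1.50 against -0.24. The 2 entries of LINC00674 rose with the RRM2 hairpin (0.82 and 0.32) while KPNA2, the next protein-coding gene and an importin, fell from 406 to 149 CPM.

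Well studied noncoding RNAs outside the LINC series were listed for comparison. Of 26 names 23 were in the table under that name and 19 were tested. MALAT1 is not among the 19. It held 0 counts under the identifier looked up, which may not be the main entry of the gene, so its level is not read. Among the names not found, CYTOR and NORAD are the members LINC00152 and LINC00657. Of the 19, 10 were higher and 5 lower with the RRM2 hairpin, 9 and 5 with the p16 hairpin added, and 11 and 4 between control and both hairpins. The shares of all genes called higher and lower were 29.0% and 31.8%, 31.9% and 29.1%, and 30.0% and 32.4%. The medians of the 19 were 0.14, 0.14 and 0.31 on the log2 scale. Of the LINC genes listed for a known function, LINC00961 was no member, with 20 counts over all libraries. LINC00467, also on that list, was at 2.72, 3.02 and 3.28 CPM in control, 3.87, 3.17 and 4.65 in shRRM2 and 3.91, 3.69 and 3.44 in shRRM2/shp16. Its step of 0.39 ± 0.16 with the RRM2 hairpin (adjusted p = 0.0395) was lost without control replicate a or b or shRRM2 replicate a or c (log2 0.24 to 0.40, adjusted p 0.0616 to 0.260).

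At the edge of the count rule, LINC01513, LINC01537 and LINC00452 were just inside, each with a third-highest count of 20, and LINC01224, LINC00670 and LINC01422 just outside, each with 19. Shared sequence limits some values: 17 of 123 members shared at least 10% of the 50-base stretches of their longest transcript with a gene elsewhere. LINC01001 shared 82.9%, LINC01347 65.5% and LINC00657 35.2%. In the authors' deposited table, which compares shRRM2/shp16 with shRRM2, 39 of the 124 members had a q-value under 0.05. The edgeR fit called 36 of these, all in the same direction, and did not call LINC00263, LINC00643 and LINC01521. Of its 65 calls, LINC00174 and LINC00649 had the opposite sign in that table.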

How the data were processed

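RNA from 9 IMR90 libraries was sequenced after ribosomal RNA depletion with a stranded kit, per the labels' protocols. The authors deposited 1 file of raw counts by Ensembl gene for every library, and a table with a log2 value per gene and library. Per the file headers, this table also gives the authors' own log2 fold changes, p-values and q-values, which compare the cells with both hairpins to shRRM2 cells. TopHat2 2.0.9, Cufflinks 2.0.2, Cuffdiff and GRCh38 are named in the submitters' processing notes, with no roles given. The deposited log2 values equal log2(x + 1), with x the RPKM divided by 1000, except that the column of shRRM2 replicate c matched its count file for 4.83% of genes within 1%. There were 0 columns of values that matched no sample. RPKM values were calculated from the counts with the lengths recovered from the other 8 columns.

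Counts were fitted with edgeR 4.0.16 in R 4.3.3 over all 9 libraries, 1 coefficient per group, after filterByExpr (16561 genes) and TMM scaling. Quasi-likelihood tests were two-sided with Benjamini-Hochberg adjustment over all tested genes of a comparison. CPM are scaled by the TMM-adjusted library size. The 2 members that passed the count minimum in 1 group alone were not tested. Members and gene lists were chosen with earlier results of these data known. Members are named with values where they were the 4 highest or lowest called fold changes of a comparison (mean log2 CPM of at least 0, groups apart), the 6 highest levels, of listed function, the 8 highest matched to a RefSeq protein, microRNA hosts, or at the count threshold. The nearest protein-coding genes of the leading members are named too. The fit was tested on simulated data. Alternatives were RLE factors, DESeq2 1.42.0, limma 3.58.1 on log2 RPKM, other filters, a replicate block and leaving out each library. Nothing says that replicates were separate cultures, so p-values measure the spread between these libraries. No 2 libraries of the same group agreed within counting noise. Counts include amplified molecules.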

Additional observations from a re-analysis of the deposited data

Results flagged for a closer look

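Reads that aligned uniquely but lay outside annotated genes, which enter no comparison, took a larger share in all 6 hairpin libraries than in any control library (17.65% to 18.92%). In shRRM2 replicates a, b and c they made up 28.83%, 27.7% and 28.82% of uniquely aligned reads. In shRRM2/shp16 replicates a, b and c they made up 23.48%, 24.07% and 24.35%. The LINC genes' share of gene counts was 0.105% to 0.113% in control, 0.135% to 0.140% in shRRM2 and 0.137% to 0.144% in shRRM2/shp16, and the last 2 ranges overlap. The part of these reads in the higher calls among LINC genes was not tested.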

How the results depend on the processing

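Of 124 members, 68 were called with the RRM2 hairpin, 65 with the p16 hairpin added and 67 between control and both hairpins. RLE factors, DESeq2, no low-count filter, only the 6 libraries compared, 10 counts as the minimum and leaving out protein-coding members or members that passed the count rule only through their highest group (both added after seeing the data) moved each count by less than 1.5 times. Leaving out 1 library gave 57 to 69, 53 to 65 and 60 to 69 calls. A minimum of 50 counts left 63 members and 41, 34 and 43 calls, and members that overlap no gene gave 20, 19 and 20 calls of 40; both have fewer members. Limma on the authors' log2 values called 41 in the first comparison, on log2(RPKM + 0.1) 45, and with a mean RPKM of at least 1 (61 members) 24, 33 and 35 in the 3 comparisons. These use the column that does not match its count file. Without it (added after seeing the data) 54 were called in the first, and LINC00473 there was -0.26. LINC00473 in shRRM2 against control turned from -0.32 to 0.000352 on the deposited scale (0.000352 too with the RPKM minimum) and 0.079 on log2(RPKM + 0.1). Same-letter libraries did not deviate together (correlations -0.0198 to 0.0486), and the replicate block gave 67, 65 and 66 calls. Of 69 calls of named members, 14 were lost in at least 1 fit without a library and 11 with DESeq2. Low counts limit most members: 83 of 126 had a mean log2 CPM under 2.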
